A study of Homo sapiens with 9 samples.

Results

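The regions described here are DDX21 sites of A375 melanoma cells that had a peak in DMSO, had no peak after the pyrimidine synthesis inhibitor A771726, and had a peak again when nucleotides were given with the inhibitor. They were chosen by the presence or absence of called peaks in the 3 deposited DDX21 lists: a DMSO peak was taken when it overlapped no peak of the A771726 list and overlapped by at least 1 bp a peak of the list with A771726 and nucleotides. Of 8321 DDX21 peaks in DMSO, 2936 met this rule. They are called returning sites below, a name for presence in the lists and not for a course in time, since each treatment was a separate culture at a single time. A missing peak means that no stretch passed the peak caller's threshold and does not show that DDX21 was absent.

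DDX21 is a DEAD-box RNA helicase concentrated in the nucleolus, where it acts in transcription and processing of ribosomal RNA. Outside the nucleolus it binds chromatin at genes of RNA polymerase II and associates with the 7SK small nuclear ribonucleoprotein, which holds the kinase CDK9 inactive as part of P-TEFb. CDK9 released from this complex phosphorylates RNA polymerase II and lets it leave promoter-proximal pausing. Leflunomide is converted in the body to A771726, which blocks dihydroorotate dehydrogenase and so limits the supply of pyrimidine nucleotides.

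A375 is an established human malignant melanoma cell line. The groups used here were the DDX21 and CDK9 libraries of cells given DMSO, cells given A771726 at 25 µM, and cells given A771726 plus nucleotides. The treatment lasted 24 h, and the labels do not name the nucleotides, their amount or when they were added. Chromatin was immunoprecipitated with an antibody against DDX21 or against CDK9, and the series also describes 3 input samples, which were not used here. There was 1 library for each antibody and treatment, so differences between treatments have no replicate error and no p-value was computed. Percentages carry exact binomial (Clopper-Pearson) 95% intervals and medians carry order-statistic 95% intervals. Both intervals cover counting error only, with each peak taken as an independent draw.

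The DDX21 lists held 8321 (DMSO), 4375 (A771726) and 7922 (nucleotides) peaks. Sequencing depth is not stated with the lists, and it was estimated from the peak values at 1.06 times that of DMSO for the A771726 library and 0.884 times for the library with nucleotides. Coordinates are hg19, as in the lists. No gene annotation or sequence of that build was at hand, so sites are named by position and no gene was assigned.

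The rule splits the DMSO list into returning sites, 4244 sites with a peak in all 3 lists, 1132 sites with a peak in DMSO alone, and 9 sites with a peak in DMSO and with A771726 but none with nucleotides. Sites without an A771726 peak made up 48.9% of the DMSO list, sites with a peak with nucleotides 86.3%, and returning sites 35.3%. These shares follow from the rule and are given as a description. With every DDX21 list reduced to its top 4375 peaks, 322 sites met the rule, so their number depends on list length. Returning sites covered 779085 bp, or 27.2% of the sequence under DMSO peaks.

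Returning sites were DDX21 peaks of low to middle strength. Fold enrichment, the authors' ratio of the fragments over a summit to the local background, had a median of 6.65 (6.46 to 6.77) in the DMSO list, with the middle 50% of sites between 4.76 and 9.09. Sites in all 3 lists had a median of 18.8 (18.5 to 19.4) and sites in DMSO alone 4.64 (4.51 to 4.71). In the DMSO list ordered by −log10 q, the median returning site stood at the 31.9th percentile, against the 74.5th for sites in all 3 lists and the 11.3th for sites in DMSO alone. The presence calls that chose the sites depend on strength, so these differences describe the choice and are no independent result.

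Returning sites were most frequent below the middle of the DMSO list. In the lowest of 10 equal deciles by −log10 q, 314 of 833 peaks were returning sites, or 37.7% (34.4 to 41.1), and 510 were in DMSO alone. The share rose to 80.5% (77.7 to 83.2) in the fourth decile and then declined to 37.1% (33.8 to 40.5) in the sixth, 9.13% (7.26 to 11.3) in the seventh and 0.601% (0.195 to 1.40) in the eighth. The top 2 deciles held no returning site among 832 peaks each. From the sixth decile up, every DMSO peak without an A771726 peak was a returning site, while in the lowest decile 38.1% (34.8 to 41.5) of such peaks were.

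**Figure D1:**
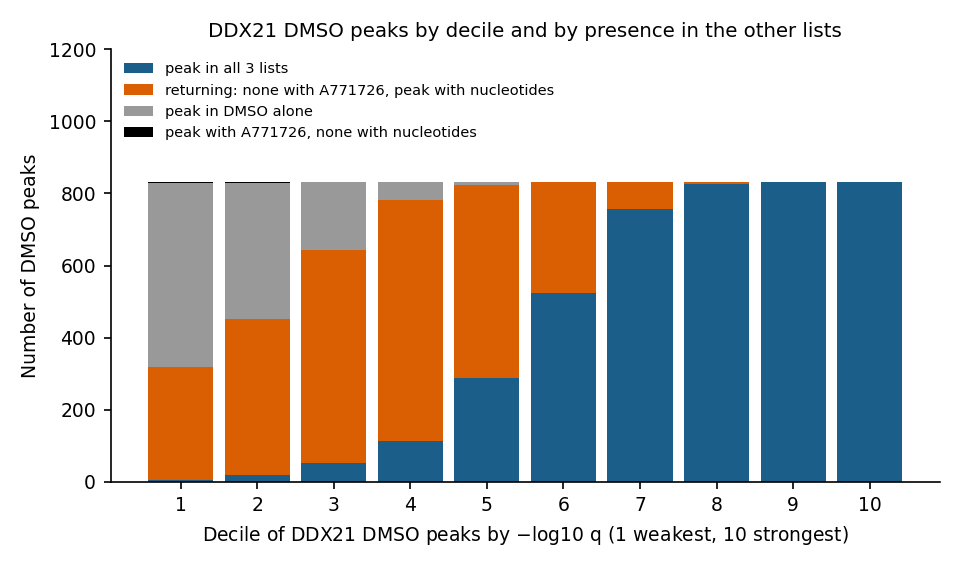
Number of DDX21 DMSO peaks (vertical axis) in each decile of −log10 q (horizontal axis, 1 weakest, 10 strongest), split by presence in the other DDX21 lists. Returning sites (orange) number 314 in decile 1, reach 670 in decile 4 and fall to 5 in decile 8, while peaks in all 3 lists (blue) fill deciles 9 and 10.

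The same order appears in the number of fragments over the summit, the pileup, which was worked out from the deposited fold enrichment and p-value of each peak. In DMSO the median pileup was 37 fragments (36 to 38) at returning sites, 129 (126 to 132) at sites in all 3 lists and 21 (21 to 22) at sites in DMSO alone. Of DMSO peaks with more than 30 and up to 40 fragments, 679 of 894 were returning sites, or 76.0% (73.0 to 78.7). Of those with more than 80 and up to 100, 73 of 598 were, or 12.2% (9.69 to 15.1). The weakest peak called in the A771726 list had 10 fragments, and 5% of that list had 17 or fewer. At sites with a peak in all 3 lists the pileup with A771726 was a median of 0.400 times that in DMSO (0.395 to 0.404). The pileup with A771726 at the returning sites themselves is not recorded in a peak list.

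At equal pileup, returning sites stood on a higher local background than sites in all 3 lists. Among DMSO peaks with more than 40 and up to 60 fragments, the median background was 5.44 fragments at 838 returning sites and 4.32 at 337 sites in all 3 lists, and the median fold enrichment was 7.69 and 10.2. For peaks with more than 60 and up to 80 fragments, the backgrounds were 6.17 at 319 returning sites and 5.04 at 517 sites in all 3 lists. A higher background was not particular to returning sites. Above 40 and up to 60 fragments the median background was 9.94 at 22 sites in DMSO alone. Above 100 fragments it was 66.2 at 3 sites in DMSO alone and 92.8 at 34 returning sites. Presence calls depend on pileup relative to local background, so these differences follow in part from the choice of sites and are no independent result. All are values of the DMSO list, and the part of background in the missing A771726 peak was not tested.

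Peak width was intermediate as well. Returning sites had a median width of 242 bp (238 to 246) in DMSO, against 399 bp (392 to 405) for sites in all 3 lists and 164.5 bp (162 to 168) for sites in DMSO alone. At like pileup the gap between returning sites and sites in all 3 lists differed by range. With more than 30 and up to 40 fragments the median widths were 229 bp for returning sites, 231.5 bp for sites in all 3 lists and 194 bp for sites in DMSO alone. Above 40 and up to 60 fragments they were 273 bp for returning sites and 302 bp for sites in all 3 lists. Above 100 fragments, where 18 of the 34 returning sites were at a background of 50 or more, they were 276.5 and 445 bp.

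With nucleotides, the peaks at returning sites had about the position, width and height they had in DMSO. The rule takes only sites that overlap a peak with nucleotides, so closeness in position follows in part from the choice of sites. Widths are likewise compared only where a peak was called in both lists. The 2936 sites overlapped 2903 different peaks of the list with nucleotides, or 36.6% of that list, and 37 sites touched 2 of its peaks. The summit with nucleotides lay a median of 20 bp (19 to 21) from the DMSO summit, and within 50 bp at 2342 sites, or 79.8% (78.3 to 81.2). At sites in all 3 lists the median shift was 9 bp (9 to 10). The median width with nucleotides was 249 bp (245 to 254), and 52.7% (50.9 to 54.5) of sites were wider than in DMSO. Within the list with nucleotides the peaks had a median fold enrichment of 6.10 (5.97 to 6.20) and a median percentile of 29.4 by −log10 q.

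Heights were compared as pileup divided by the lowest background of the list, which scales for depth. The median pileup at returning sites was 37 fragments in DMSO and 34 with nucleotides, and the median ratio of heights, nucleotides over DMSO, was 1.02 (1.01 to 1.03). The ratio lay between 1/1.5 and 1.5 at 2636 sites, or 89.8% (88.6 to 90.9). Sites in all 3 lists had a ratio of 1.06 (1.05 to 1.06) with nucleotides and of 0.418 (0.413 to 0.422) with A771726 alone. By pileup in DMSO, the ratio with nucleotides at returning sites was 1.18 up to 20 fragments, 1.001 above 30 and up to 40, and 0.965 above 60 and up to 80. Sites in all 3 lists with more than 60 and up to 80 fragments had 1.03. A site enters the comparison only when a peak was called in both lists, which leaves out low ratios among the weakest sites. Across the 2882 sites whose peak with nucleotides spans no A771726 peak, −log10 q in DMSO and with nucleotides had a Spearman correlation of 0.706, given as a description because both lists share the choice of sites.

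**Figure D2:**
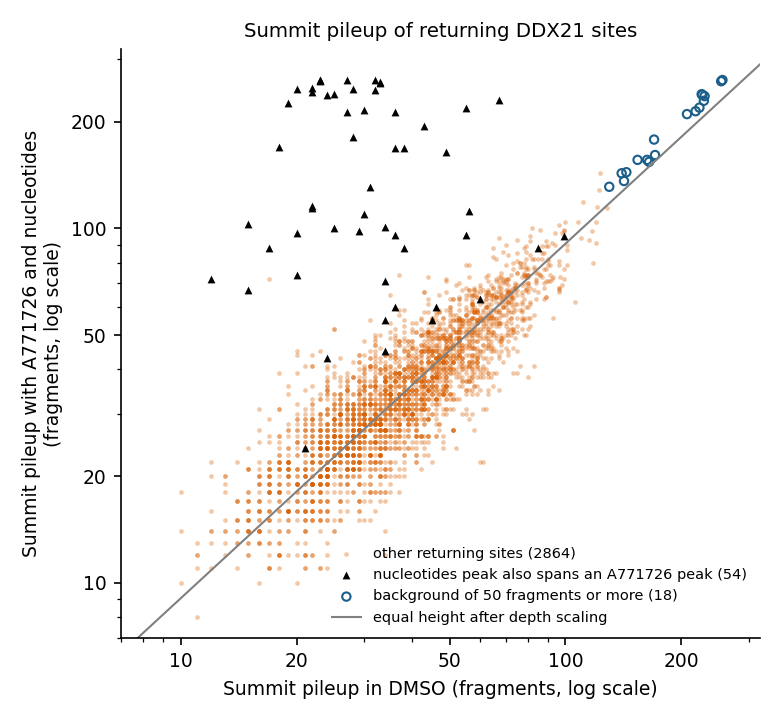
Summit pileup of each returning site in DMSO (horizontal axis, fragments, log scale) and in the overlapping peak with A771726 and nucleotides (vertical axis, fragments, log scale). Most points follow the grey line of equal height after depth scaling, 54 sites whose peak with nucleotides also spans an A771726 peak include the points farthest above it (triangles), and 18 sites at a background of 50 fragments or more lie at its upper end (circles).

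The strongest returning site lay at chr1:101360269-101360865, 597 bp wide. Its pileup was 120 fragments in DMSO, with a fold enrichment of 24.8, and 91 with nucleotides, with a fold enrichment of 19.9 in that list. The nearest A771726 peak was 130442 bp away. The site ranked 1964th of all DMSO peaks by −log10 q, and every DMSO peak ranked above it had an A771726 peak. It was a high peak in both lists and had no called peak with A771726 alone.

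The next sites in this order were of similar height. At chr3:179065213-179065624 the pileup was 120 fragments in DMSO and 104 with nucleotides. At chr11:33529608-33529875 it was 98 and 69, with the highest DMSO fold enrichment of all returning sites, 31.7. At chr16:69364401-69364678 it was 117 and 98. After scaling for depth the height ratios at these 3 sites were 0.957, 0.778 and 0.925.

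The site next in order, chrX:48814779-48815009, had the lowest ratio of the top 10. Its pileup was 83 fragments in DMSO and 41 with nucleotides, a height ratio of 0.546. It was 1 of 3 returning sites within 1027 bp, chrX:48814779-48815805, which had DMSO pileups from 24 to 83 fragments and no A771726 or CDK9 DMSO peak among them. With nucleotides, the peak chrX:48814791-48815365 lay over it.

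The others of the top 10 lay at chr1:228296859-228297132, chr5:16465725-16466099, chr1:62190637-62190979, chrX:47863329-47863597 and chr1:93811283-93811617. The highest ratio was at chr5:16465725-16466099, where the pileup was 111 fragments in DMSO and 119 with nucleotides, a height ratio of 1.18, and where the nearest A771726 peak was 4993361 bp away. Over all 10 the summit moved by 1 to 37 bp between DMSO and nucleotides. None of the 10 overlapped a CDK9 peak in DMSO, and the site chr1:93811283-93811617 overlapped a CDK9 peak with nucleotides.

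Most DMSO peaks like these 10 had an A771726 peak. Of the DMSO peaks with 83 to 121 fragments at a background of at most 7.92, 725 had a peak in all 3 lists, 41 were returning sites and 0 were in DMSO alone. The 725 had pileups with A771726 from 14 to 79 fragments, with a median of 34. Each had a called A771726 peak, so the lowest of these values follows in part from the choice. Above 100 fragments, and leaving out backgrounds of 50 or more, 16 of 2767 DMSO peaks were returning sites.

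A site at the middle of the order by −log10 q was far lower. At chr3:52804940-52805250 the pileup was 44 fragments in DMSO, at a background of 7.20 and a fold enrichment of 5.49, and 54 with nucleotides. The sites ranked just before and after it, chr19:2236159-2236576 and chr9:25677469-25677737, had the same DMSO values, and 50 and 31 fragments with nucleotides. The 3 sites thus had equal summits in DMSO and unequal ones with nucleotides.

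The widest returning sites were of different kinds. Of the 5 widest, chr1:121484406-121485327, 922 bp, and chr7:61968786-61969626, 841 bp, had pileups of 256 and 254 fragments on backgrounds of 184 and 181, with fold enrichments of 1.39 and 1.40. The site chr1:45196176-45197016, 841 bp, had 59 fragments on a background of 4.97 and lay on a CDK9 peak in both DMSO and nucleotides. The sites chr16:30669703-30670525 and chr3:9438537-9439346 had fold enrichments of 5.83 and 9.64. All 3 of these sites on low background were covered in part by a narrower peak with nucleotides, of 427, 499 and 451 bp.

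High background was a mark of a few returning sites. A background of 50 fragments or more was found at 18 of the 2936, at 1 of the 4244 sites in all 3 lists and at 4 of the 1132 in DMSO alone. The 18 had pileups of 130 to 256 fragments but fold enrichments of 1.34 to 1.62, and they lay on 8 chromosomes. They included 4 sites within chr6:58776252-58779202 and 4 within chr2:92309570-92321186. Of the 5 widest sites, the 2 on such backgrounds also lay on CDK9 peaks in DMSO and with nucleotides.

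Some returning sites lay beside a DDX21 peak that was called with A771726. An A771726 peak lay within 250 bp of 88 sites, or 2.997% (2.41 to 3.68), and within 1 kb of 172 sites, or 5.86% (5.04 to 6.77). At 54 sites, 1.84% (1.38 to 2.39), the peak with nucleotides overlapped both the returning site and an A771726 peak. These 54 had a median width of 194.5 bp and a median pileup of 30 fragments in DMSO, and the peaks they overlapped with nucleotides had a median width of 780.5 bp and a median pileup of 123.5 fragments. Their median percentile by −log10 q was 18.0 in the DMSO list and 78.7 in the list with nucleotides. The height with nucleotides is taken at the summit of the joined peak, which need not lie within the returning site.

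The top 5 returning sites by −log10 q in the list with nucleotides were all of this kind. At chr4:2537618-2537798 the pileup was 19 fragments in DMSO, and the peak with nucleotides, chr4:2537667-2538318, had 226 with its summit 455 bp away. The A771726 peak next to it was 114 bp from the site. The other 4, at chr5:40755204-40755642, chr22:18561249-18561432, chr19:47353558-47353804 and chr2:75874342-75874472, had 20 to 33 fragments in DMSO, 247 to 262 with nucleotides, and an A771726 peak 175 to 318 bp away. Without sites that had an A771726 peak within 1 kb, 2764 returning sites remained, and 2746 of those were at a background under 50 fragments.

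**Figure D3:**
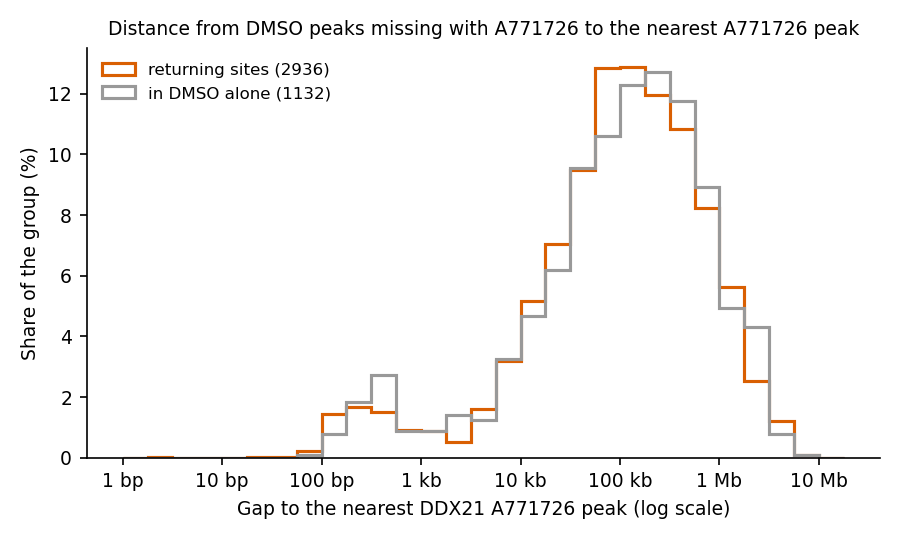
Gap from each DMSO peak missing with A771726 to the nearest DDX21 A771726 peak (horizontal axis, log scale) as a share of its group (vertical axis, percent), for 2936 returning sites and 1132 sites in DMSO alone. Both groups have a small mode below 1 kb and a main mode near 100 kb.

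Most returning sites were far from the A771726 peaks. The median gap was 117516 bp (108890 to 127465), and 46.6% (44.8 to 48.5) of sites had an A771726 peak within 100 kb. Sites in DMSO alone had a median gap of 135094 bp (115952 to 153473), an interval that overlaps that of the returning sites.

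At the edges of the rule, the named sites on both sides had fold enrichments below the returning-site median of 6.65. The returning site nearest to an A771726 peak, chr1:149825040-149825230, was 2 bp from it and had a fold enrichment of 4.13. The next were 26 and 51 bp away, with 3.58 and 4.75. The site 51 bp away was not weak by other measures. It had 55 fragments in DMSO and stood at the 33.0th percentile by −log10 q. Just outside, DMSO peaks that overlapped an A771726 peak by 3, 8 and 30 bp had fold enrichments of 1.97, 4.31 and 4.38. The smallest overlaps with a peak with nucleotides were 1, 4 and 12 bp, at fold enrichments of 4.81, 2.94 and 4.77, and the nearest DMSO peaks that missed such a peak were 0, 4 and 6 bp from it, at 3.97, 3.55 and 2.99.

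Returning sites lay on chromosomes 1 to 22, X and Y, with different shares. The lowest share was on chromosome 19, where 237 of 811 DMSO peaks were returning sites, or 29.2% (26.1 to 32.5). The highest were on chromosome 4, with 43.9% (38.03 to 49.96) of 280, and chromosome X, with 43.8% (38.1 to 49.5) of 304. The intervals of chromosomes 4 and X do not overlap that of chromosome 19. Strong peaks were unevenly placed, since 36.6% of DMSO peaks on chromosome 19 were in the top 2 deciles by −log10 q, against 12.5% on chromosome 4 and 8.88% on chromosome X. Within deciles 3 to 5 the returning share was 72.6% (65.8 to 78.7) on chromosome 19, 76.4% (67.2 to 84.1) on chromosome 4 and 74.1% (64.8 to 82.03) on chromosome X, with overlapping intervals. Among DMSO peaks without an A771726 peak, the share that returned ran from 62.5% (47.4 to 76.05) on chromosome 21 to 84.9% (77.2 to 90.8) on chromosome 14, leaving out chromosome Y with 9 such peaks.

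**Figure D4:**
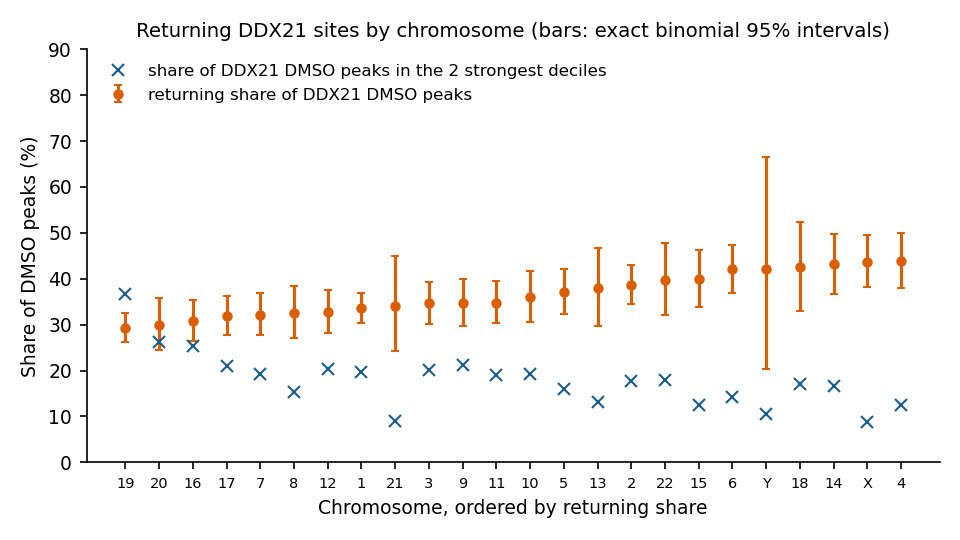
Share of DDX21 DMSO peaks on each chromosome that are returning sites (circles, percent, with 95% intervals) and share in the 2 strongest deciles (crosses, percent), with chromosomes ordered by the first. The returning share runs from 29.2% on chromosome 19, where 36.6% of peaks are in the strongest deciles, to 43.9% on chromosome 4, where 12.5% are.

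Returning sites were mostly single. Of 2936 sites, 2578 had no other returning site within 10 kb, and 358, or 12.2% (11.03 to 13.4), formed 170 runs, of which 156 were pairs. No run had more than 4 sites. The 3 longest runs with the shortest span were chr6:58776252-58779202, chr21:9828998-9834248 and chr2:92309570-92321186. That on chromosome 21 had DMSO pileups of 14 to 28 fragments on a median background of 2.90 and 11 to 30 with nucleotides, while those on chromosomes 6 and 2 had median backgrounds of 164 and 99.0. A further run of 4, chr1:161413270-161435555, had a median background of 19.6 and held 6 CDK9 DMSO peaks.

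Any other DDX21 DMSO peak lay within 1 kb of 455 returning sites, or 15.5% (14.2 to 16.9). The share was 8.74% (7.91 to 9.63) for sites in all 3 lists and 18.5% (16.2 to 20.8) for sites in DMSO alone. The nearest DMSO peak was another returning site for 38.1% (36.4 to 39.9) of returning sites, against their 35.3% of the list, and a site in all 3 lists for 47.6% (45.8 to 49.4).

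Over the whole list, CDK9 DMSO peaks were less frequent at returning sites than at the other DDX21 sites. They were not detectably less frequent there than at sites in all 3 lists of like pileup or width. Against sites in DMSO alone, CDK9 DMSO peaks were less frequent at returning sites in some ranges of pileup, width and −log10 q. For the CDK9 lists with A771726 and with nucleotides, the shares at returning sites and at sites in all 3 lists were apart in some ranges. The CDK9 lists had no part in the rule, and come from the same 3 treatments. Over all 8321 DDX21 sites of DMSO cells, 7.38% were on a peak of the CDK9 DMSO list, 0.481% on one of the CDK9 A771726 list and 5.31% on one of the CDK9 list with nucleotides. For returning sites the CDK9 DMSO share was 151 of 2936, or 5.14% (4.37 to 6.005). It was 8.81% (7.98 to 9.71) at sites in all 3 lists and 7.60% (6.12 to 9.30) at sites in DMSO alone, and neither interval overlaps that of the returning sites. With all lists limited to a −log10 q of at least 5, the share at returning sites was 3.26%, and with equal numbers of top peaks from each list it was 0%. The second setting keeps 290 of the 3462 CDK9 DMSO peaks, and neither setting was run for the other groups.

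With A771726, no returning site lay on a CDK9 peak. For this count of 0 of 2936 the exact binomial upper limit is 0.126%, and a limit of 3 counts gives 0.102%. Sites in all 3 lists had 35 of 4244, or 0.825% (0.575 to 1.15), and sites in DMSO alone had 5 of 1132, or 0.442% (0.144 to 1.03). The CDK9 list with A771726 held 290 peaks, against 3462 in DMSO and 3099 with nucleotides, so all these counts are small. A CDK9 peak with A771726 lay within 1 kb of 13 returning sites.

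With nucleotides, 115 returning sites lay on a CDK9 peak, or 3.92% (3.24 to 4.68). The share was 6.48% (5.76 to 7.26) at sites in all 3 lists, whose interval lies above, and 4.42% (3.30 to 5.78) at sites in DMSO alone, whose interval overlaps. The sites were only in part the same ones: 53 lay on a CDK9 peak both in DMSO and with nucleotides, which is 35.1% (27.5 to 43.3) of the 151.

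**Figure D5:**
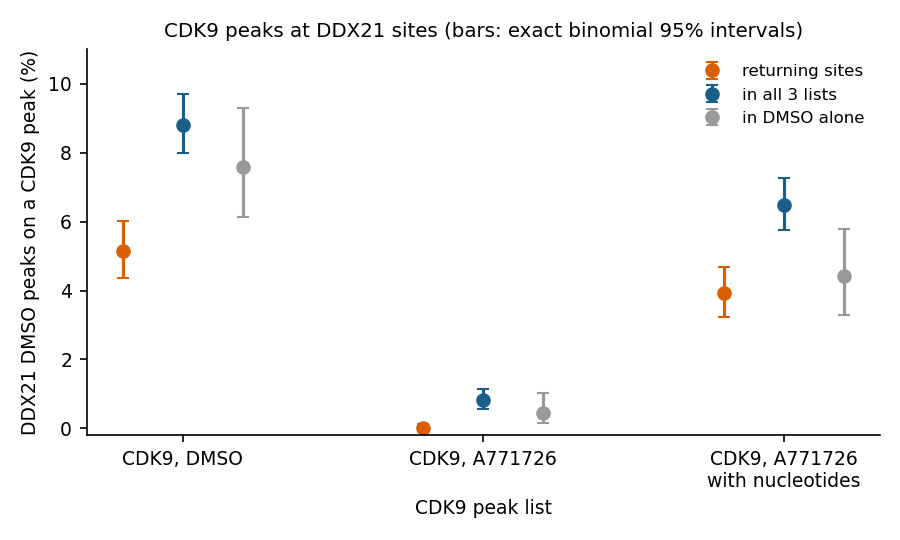
Share of DDX21 DMSO peaks that overlap a CDK9 peak (vertical axis, percent) by CDK9 list (horizontal axis), for returning sites, sites in all 3 lists and sites in DMSO alone, with exact binomial 95% intervals as bars. Returning sites are lowest in each list, at 5.14%, 0% and 3.92%, and their interval overlaps that of sites in DMSO alone with nucleotides.

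At like pileup, the CDK9 DMSO share at returning sites could not be told from that at sites in all 3 lists. With more than 30 and up to 40 fragments, 5.15% (3.62 to 7.10) of returning sites and 5.13% (1.41 to 12.6) of sites in all 3 lists lay on a CDK9 DMSO peak. Above 40 and up to 60 fragments the shares were 6.68% (5.09 to 8.59) and 5.93% (3.66 to 9.02), and above 60 and up to 80 they were 4.39% (2.42 to 7.25) and 6.58% (4.60 to 9.07). The intervals overlapped in each pileup range. Sites in all 3 lists with more than 100 fragments, a range with 34 returning sites, had the share 10.2% (9.10 to 11.4). By −log10 q, deciles 6 to 8 gave 4.87% (2.96 to 7.504) of 390 returning sites and 9.73% (8.50 to 11.1) of 2106 sites in all 3 lists, but 309 of those returning sites were in decile 6, against 523 of the sites in all 3 lists. In deciles 3 to 5 the shares were 5.18% (4.20 to 6.30) and 7.32% (5.09 to 10.1), with overlapping intervals. Wider sites met CDK9 peaks more often, and by quartile of DMSO width the intervals of returning sites and sites in all 3 lists overlapped in each quartile. In the widest quartile the shares were 9.40% (5.99 to 13.9) and 9.27% (7.98 to 10.7). In the narrowest quartile the share was 3.74% (2.68 to 5.06) at returning sites and 7.15% (5.56 to 9.02) at sites in DMSO alone. Sites in DMSO alone had the higher share at 30 to 40 fragments too, with 12.6% (7.51 to 19.4), while their interval overlapped that of returning sites in the other pileup ranges. In the second narrowest quartile the shares were 4.19% (3.08 to 5.57) at returning sites and 9.47% (5.71 to 14.6) at sites in DMSO alone. In deciles 3 to 5 the share at sites in DMSO alone was 9.76% (6.35 to 14.2), an interval above that of returning sites. In the wider quartiles and in deciles 1 to 2 the intervals of these groups overlapped. For the CDK9 list with A771726, returning sites and sites in all 3 lists were apart above 40 and up to 60 fragments. Their shares there were 0% (0 to 0.439) and 2.08% (0.839 to 4.23). For the CDK9 list with nucleotides they were apart above 60 and up to 80 fragments, with 1.88% (0.693 to 4.05) and 5.996% (4.11 to 8.40). In the other pileup ranges the intervals for these lists overlapped.

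The CDK9 peaks on returning sites rarely had a CDK9 A771726 peak themselves. Of the 151 CDK9 DMSO peaks there, 1 overlapped a CDK9 A771726 peak, or 0.662% (0.0168 to 3.63). Of the 374 on sites in all 3 lists, 34 did, or 9.09% (6.38 to 12.5), and of the 2846 away from any DDX21 DMSO peak, 147 did, or 5.17% (4.38 to 6.04). Among the top 20% of CDK9 DMSO peaks by −log10 q, the counts were 1 of 35 on returning sites, or 2.86% (0.0723 to 14.9), and 32 of 110 on sites in all 3 lists, or 29.1% (20.8 to 38.5). With nucleotides the same top peaks had a CDK9 peak in 24 of 35 cases, 68.6% (50.7 to 83.1), and 79 of 110, 71.8% (62.4 to 79.98). Among the other CDK9 DMSO peaks the counts with A771726 were 0 of 116 on returning sites, an interval of 0 to 3.13%, and 2 of 264 on sites in all 3 lists, or 0.758% (0.0919 to 2.71). On sites in DMSO alone, 6 of 86 CDK9 DMSO peaks overlapped a CDK9 A771726 peak, or 6.98% (2.60 to 14.6), an interval that overlaps that of the returning sites. The intervals of returning sites and sites in all 3 lists were thus apart for the top CDK9 peaks and overlapped for the rest. Among the top CDK9 peaks, those on sites in DMSO alone had 5 of 34, or 14.7% (4.95 to 31.1). Those away from any DDX21 DMSO peak had 90 of 511, or 17.6% (14.4 to 21.2). Both of these intervals overlap that of the returning sites. With 1 library per treatment, all these intervals describe these libraries only. The median CDK9 percentile by −log10 q was 57.6 on returning sites and 61.9 on sites in all 3 lists.

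At the returning sites with the strongest CDK9 DMSO peaks, the DDX21 and CDK9 peaks that overlapped came from separate libraries. At chr17:56756684-56757062 the DDX21 pileup was 58 fragments in DMSO and 27 with nucleotides. The CDK9 peak over it, chr17:56756594-56757175, had 61 fragments in DMSO, at the 99.5th percentile of its list, and 49 with nucleotides. The DDX21 height ratio at this site was 0.514.

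At chr12:7052925-7053433 the DDX21 pileup was 39 fragments in DMSO and 33 with nucleotides, and the CDK9 pileup 49 and 38. At chr1:155214532-155214739 the DDX21 pileup was 68 and 65 and the CDK9 pileup 62 and 53. These are fragments without scaling for depth. The DDX21 height ratio, which scales for it, was 0.935 at the first site and 1.06 at the second, so the direction turned with scaling at the second. The 2 other sites of this top 5, chr1:149825040-149825230 and chr1:147511302-147511480, lay beside an A771726 peak that their DDX21 peak with nucleotides also overlapped, and the second had no CDK9 peak with nucleotides. Their CDK9 summits in DMSO lay outside the sites, 863 and 309 bp from the DDX21 summits.

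Ranked instead by the CDK9 peak with nucleotides, the sites with CDK9 under both conditions were led by chr1:149825040-149825230, followed by chr1:11969642-11970078, chr17:61920025-61920330, chr19:55770201-55770985 and chr9:131902288-131902468. At chr1:11969642-11970078 the CDK9 pileup was 27 fragments in DMSO and 42 with nucleotides, while the DDX21 pileup was 42 and 26. At chr19:55770201-55770985 the CDK9 pileup was 25 and 36 and the DDX21 pileup 73 and 63. At chr17:61920025-61920330 the CDK9 pileup was 34 and 40 and the DDX21 pileup 34 and 27. At chr1:149825040-149825230 the CDK9 pileup was 60 and 59 and the DDX21 pileup 21 and 24. The CDK9 summits there were 863 and 877 bp from the DDX21 summit, outside the site, so these CDK9 values are not those at the site. At chr9:131902288-131902468 the CDK9 pileup was 41 and 38 and the DDX21 pileup 22 and 20, with a DDX21 height ratio of 1.004. The 5 sites thus had no common direction, and a ranking by CDK9 with nucleotides favours sites where that value is high. Over the 151 returning sites on a CDK9 DMSO peak, the DDX21 and CDK9 summits were a median of 55 bp apart, against 31 bp at sites in all 3 lists.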

How the data were processed

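Per the submitters' processing notes, the tools were Bowtie and MACS2 2.0 and the build hg19. What each tool did, with which settings and which control, is not stated there. Each deposited list belongs to 1 library and gives a peak's position, summit, fold enrichment (a ratio to local background), −log10 p-value and −log10 q-value from the authors' peak calling. A deposited score, 10 times −log10 q rounded down, went unused.

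Lists were compared in Python 3.11.15 by overlap of at least 1 bp, and the largest overlap was taken where a site met several peaks. Fold enrichment was read as (pileup + 1)/(background + 1) and −log10 p as a Poisson upper tail, and in 100% of peaks some whole-number pileup satisfied the pair to 0.001 of −log10 p. Height is pileup over the lowest background of its list. Relative depth is that background over the shortest peak. The recovery of pileups and the overlap of peaks were tested on simulated data, the pileups with values drawn from the same formulas. The scaling of height and the relative depth were not tested. Samples were grouped by title. No test was possible with 1 library per treatment.

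Sites were named by rank of −log10 q in DMSO (10), of −log10 q with nucleotides (5), of width (5) and of the overlapping CDK9 peak (5 and 5), the middle rank (3), the edges of the rule (3 each; those just outside a peak with nucleotides were added later) and the 3 longest runs, shorter runs first among ties. The fourth run and the 3 sites on chromosome X were named after their values were seen. The sites and these rules were chosen with earlier results of these data known. Counts near genes were not made, since the gene table at hand is of another build. The alternatives tried were −log10 q not under 5, shared length of 50% or more of the shorter peak, summits within 250 bp, no A771726 peak within 1 kb, equal numbers of top peaks, peaks within 1 kb merged and leaving out chromosome Y, the mitochondrial genome and unplaced contigs. Leaving out backgrounds of 50 fragments or more was added after seeing the data.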

Additional observations from a re-analysis of the deposited data

How the results depend on the processing

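Of 72 alternative values over 9 results, 53 stayed within the interval of the reported value (for the number of sites, within 1.5 times it) and 19 moved. A share, a number or a width cannot change sign, so none of these could reverse. Under the main rule, 72.2% (70.8 to 73.5) of DMSO peaks without an A771726 peak were returning sites. With equal numbers of top peaks from each list (4375 for DDX21, 290 for CDK9), returning sites numbered 322, were 63.9% of DMSO peaks without an A771726 peak, and had a median width of 306.5 bp, a median fold enrichment of 12.4, a median summit shift of 12 bp, 8.70% within 10 kb of an A771726 peak, and CDK9 peaks at 0% in DMSO and 0.621% with nucleotides. The number of returning sites thus depends on list length. With a −log10 q of at least 5 the share of missing peaks that returned was 73.9%, the median width 256 bp, the median fold enrichment 7.19 and the CDK9 shares 3.26% in DMSO and 2.23% with nucleotides. With peaks within 1 kb merged, the share was 73.7%, the width 253 bp, the fold enrichment 6.82 and the share within 10 kb of an A771726 peak 6.33%. That last share was 6.58% when no A771726 peak was allowed within 1 kb, which follows from the setting, against 12.1% as reported. With summits within 250 bp, 70.6% of missing peaks returned. Overlap of at least 50%, leaving out chromosome Y, the mitochondrial genome and unplaced contigs, and leaving out high backgrounds moved none of the 9 results. The share of returning sites on a CDK9 peak with A771726 was 0% in every setting run. No paired analysis was possible because each antibody and treatment had 1 library. Depth is known only as a relative estimate, and the pileup with A771726 at a site without a peak is not recorded, so a weak A771726 signal there cannot be told from none.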

Other observations

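Single returning sites varied more in height between DMSO and nucleotides than sites in all 3 lists. After depth scaling the middle 90% of height ratios, nucleotides over DMSO, ran from 0.684 to 1.56 at returning sites and from 0.806 to 1.29 at sites in all 3 lists. At 4 returning sites the ratio was under 0.5. Median pileup in DMSO was 37 fragments at returning sites and 129 at sites in all 3 lists, and its part in the wider range was not tested. The 95th percentile of DMSO pileup at sites in all 3 lists was 250 fragments, near the highest pileup of that list, 256. With nucleotides the highest pileup was 262. Whether an upper limit on pileup narrowed the range of ratios at sites in all 3 lists was not tested.

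DMSO peaks of high pileup and ordinary background that had no A771726 peak were few, and 41 of them matched the top 10 returning sites in pileup and background. The 725 sites in all 3 lists within the same pileup range and background limit had at least 14 fragments with A771726. All 725 had a called A771726 peak by choice, so this lowest value follows in part from the choice. These 41 sites would be the first to look at in read-level data, where the A771726 signal under a missing peak can be counted.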
